A study of Mus musculus with 16 samples.

Results

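Alpk3, Pxdc1, Pmp22, Angptl4, Stard8, Cygb and Cpne8 are 7 genes that read higher in Lhx1-null than in wild-type definitive endoderm (DE) cultures and that belong to none of the germ layer or pluripotency marker sets used for these cells. They were chosen for that difference in these same arrays, so the difference itself is given below as a description, with no test. They are 7 of 10939 genes that passed a filter on dim probes, and the array carries 13 probes for them among 45281. All 7 genes passed the filter, 9 of the 13 probes did, and the filter could be passed through the null cultures alone. The 16 cultures came from embryonic stem (ES) cell lines, either Lhx1+/+ or Lhx1∆/∆, that were established from blastocysts of a heterozygous intercross and differentiated with Activin-A and EGF. Each genotype was sampled at day 5 and at day 6, giving 4 groups of 4 cultures, and day 4 was not analysed here. Every culture was whole and unsorted, so fewer cells of a type and less RNA per cell cannot be told apart in any value below.

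Lhx1 is a LIM homeodomain transcription factor of the anterior streak, DE and midline, and the arrays addressed which genes depend on it in DE cultures. The 7 genes have no shared pathway. Angptl4 is a secreted inhibitor of lipoprotein lipase, Pmp22 is a membrane protein of peripheral myelin that is also made outside nerves, and Stard8 is a RhoGAP with a START lipid-binding domain. Alpk3 is a kinase of heart and skeletal muscle, Cygb is a globin of fibroblast-like cells, Cpne8 is a copine, a calcium-dependent phospholipid-binding protein, and Pxdc1 is a little-studied protein named for its PX domain, a fold that binds phosphoinositides. Bmp4, a ligand that favors posterior and extraembryonic mesoderm fates, and Tbx3, a T-box factor expressed in ES cells and in early endoderm and mesoderm, also read higher in the null cultures. They served as the references against which each of the 7 was followed across cultures.

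Values are log2 intensities after background correction and quantile normalization, and each gene is given by its brightest probe unless another is named. A probe is called above background on an array when its detection p-value, which ranks it among the negative controls of that array, is under 0.01. The lowest level called above background was 6.79 to 7.42 on 12 arrays and 7.77 to 8.26 on the 4 arrays numbered replicate 3, which also had the fewest probes above background, 10734 to 12194 against 13253 to 15453. Lhx1 was read at 14.34 to 14.88 in wild-type and at 13.10 to 14.49 in 6 null cultures, and at 8.15 in null day 5 replicate 4 and 9.76 in null day 6 replicate 2. The position of the Lhx1 probes relative to the deletion is not given in the sources used here, so the probe does not check the genotype. Of 9 DE markers, all 9 were above background in at least 1 wild-type culture at each day, and their summed linear level lay between 37975 and 76997 in wild-type cultures and between 3645 and 25168 in nulls. Over all 10939 genes the median null minus wild-type difference was 0.01 at day 5 and 0.00 at day 6.

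Upstream sequence was at hand for 5 of the 7 genes in a RefSeq table of the GRCm38.p6 build, which matched Alpk3, Cpne8, Pxdc1 and Stard8 with 1 start each and Pmp22 with 4. Angptl4 and Cygb are named only. The 250 bases before the start of Stard8, the member set most fully beside Bmp4 below, and of Pxdc1, Cpne8 and Alpk3, which were above background in at most 1 wild-type culture, are shown so that the letters can be set beside the values. Capitals mark GGCGCC, a palindrome known as a GC-rich SMAD box.
Stard8: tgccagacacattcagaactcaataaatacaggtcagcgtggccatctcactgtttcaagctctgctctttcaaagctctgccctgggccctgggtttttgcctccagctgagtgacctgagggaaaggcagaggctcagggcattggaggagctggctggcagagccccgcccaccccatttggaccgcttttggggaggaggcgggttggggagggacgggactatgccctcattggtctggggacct
Pxdc1: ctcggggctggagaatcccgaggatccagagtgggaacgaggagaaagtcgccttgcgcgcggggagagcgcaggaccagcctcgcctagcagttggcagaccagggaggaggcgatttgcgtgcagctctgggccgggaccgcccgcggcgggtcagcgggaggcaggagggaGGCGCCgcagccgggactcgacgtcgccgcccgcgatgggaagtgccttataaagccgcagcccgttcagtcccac
Cpne8: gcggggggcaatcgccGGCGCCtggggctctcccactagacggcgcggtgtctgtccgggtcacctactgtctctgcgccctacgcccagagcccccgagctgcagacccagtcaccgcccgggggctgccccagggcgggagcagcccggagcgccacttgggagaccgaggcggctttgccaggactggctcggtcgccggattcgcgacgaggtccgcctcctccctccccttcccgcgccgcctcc
Alpk3: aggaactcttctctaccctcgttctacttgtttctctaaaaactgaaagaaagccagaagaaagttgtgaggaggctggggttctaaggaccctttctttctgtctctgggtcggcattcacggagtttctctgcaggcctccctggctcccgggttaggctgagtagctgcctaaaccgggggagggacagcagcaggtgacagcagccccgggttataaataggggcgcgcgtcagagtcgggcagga
These stretches lie at chrX:99042331-99042580 on the plus strand for Stard8, chr13:34652682-34652931 on the minus strand for Pxdc1, chr15:90679389-90679638 on the minus strand for Cpne8 and chr7:81057350-81057599 on the plus strand for Alpk3. GGCGCC was present in 4 of the 8 windows of the 5 genes, 1 each for Pxdc1 and Cpne8 and 2 for Pmp22, and in 9.59% of all 32851 windows of the same length. The homeodomain core TAAT, searched on both strands, was in 0 of the 8 windows and in 54.9% of all windows. The hypoxia response core ACGTG, also searched on both strands, was in 0 of 8 and in 16.6% of all. The counts describe the letters only.

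Stard8 and Pmp22 had the largest measured differences at day 6, though not at day 5, and were the only members above background in most wild-type cultures. Stard8 read 7.91, 9.86, 8.37 and 7.83 in the wild-type and 11.73, 9.99, 9.25 and 12.44 in the null cultures of day 5, replicates 1 to 4 in that order. The groups overlapped at day 5, since null replicate 3 lay below wild-type replicate 2 and null replicate 2 was only just above it. At day 6 the wild-type cultures read 7.23, 8.82, 9.41 and 6.83 and the null cultures 11.74, 13.05, 12.01 and 11.61. These day 6 groups were 2.20 apart at their nearest cultures, and wild-type replicate 4 was the single culture in which Stard8 was below background. The mean difference was 2.36 on the log2 scale at day 5 (SE over cultures 0.88, n = 4 and 4) and 4.03 at day 6 (SE 0.70), a 16.3-fold difference. The second Stard8 probe, ILMN_2998807, gave 2.47 and 3.82 for the same differences, and with it the day 5 groups were 0.21 apart.

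Pmp22 was bright in every culture. It read 9.72, 10.16, 9.95 and 8.83 in wild-type and 13.26, 11.10, 11.13 and 13.004 in null cultures of day 5, and 9.31, 9.09, 10.05 and 9.09 in wild-type and 12.86, 13.18, 12.82 and 13.21 in null cultures of day 6. In the deposited intensities, before any correction, the wild-type values spanned 571.7 to 1561 and the null values 2192 to 9279. Every null culture lay above every wild-type culture over both days, with null day 5 replicates 2 and 3 between the wild-type cultures and the other 6 nulls. The difference was 2.46 at day 5 (SE 0.65) and 3.63 at day 6 (SE 0.25), or 12.4-fold. The day 6 null cultures had an SD of 0.21 against 1.17 at day 5. With the second probe, ILMN_2661299, the differences were 3.03 and 4.82, and at day 5 null replicate 2 at 9.87 was below wild-type replicate 3 at 9.99.

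Alpk3 and Cpne8 were not above background in any of the 8 wild-type cultures. Alpk3 read 5.65, 5.98, 6.12 and 7.14 in wild-type and 9.07, 8.0, 8.02 and 9.42 in null cultures of day 5. At day 6 it read 6.03, 6.69, 6.71 and 6.28 in wild-type and 8.24, 9.18, 9.58 and 9.37 in null cultures. It was above background in 7 of the 8 null cultures, the exception being day 5 replicate 3, and no null culture reached down to the wild-type range on either day. Since the wild-type values are below background, the fold is a lower bound. It is the null mean against the higher of each array's lowest detected level and the probe's own value, and it was at least 2.28-fold at day 5 and at least 3.71-fold at day 6. The measured differences were 2.40 (SE 0.48) and 2.66 (SE 0.34).

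Cpne8 had the widest spread of the 7 among the day 6 null cultures, with an SD of 1.67. It read 6.04, 6.50, 7.91 and 6.92 in wild-type and 9.20, 8.33, 7.84 and 7.35 in null cultures of day 5, and 6.47, 6.65, 6.11 and 5.73 in wild-type and 10.23, 6.66, 9.23 and 10.14 in null cultures of day 6. The day 5 groups overlapped, and at day 6 null replicate 2, which was below background, was only 0.01 above the highest wild-type culture while the other 3 nulls were clearly brighter. The gain was at least 1.67-fold at day 5 and at least 3.64-fold at day 6, from measured differences of 1.34 (SE 0.56) and 2.83 (SE 0.86). The platform annotation gives Cpne8 3 more probes. ILMN_3072337 was above background on 1 array, null day 5 replicate 1, and ILMN_1241310 and ILMN_1236653 on none, with differences of 0.03 to 0.62, so the Cpne8 gain rests on 1 probe of 4.

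Cygb, Pxdc1 and Angptl4 were near background in wild-type. Cygb read 7.01, 6.16, 6.76 and 6.62 in wild-type and 9.20, 7.73, 8.39 and 11.16 in null cultures of day 5, and 6.15, 7.28, 6.30 and 5.73 in wild-type and 8.86, 10.62, 8.89 and 9.23 in null cultures of day 6. It was above background in 1 wild-type culture, day 6 replicate 2, and in all 8 nulls, with day 5 replicate 4 and day 6 replicate 2 far above the other 6. The gain was at least 3.20-fold at day 5, and the measured differences were 2.48 (SE 0.76) and 3.03 (SE 0.53). Pxdc1 had the smallest SD of the 7 among day 5 nulls, 0.19, with 6.90, 6.62, 6.38 and 5.84 in wild-type and 8.85, 8.52, 8.42 and 8.57 in null cultures. At day 6 it read 6.56, 7.45, 6.70 and 6.76 in wild-type and 7.89, 8.56, 9.0 and 8.21 in null cultures. It was above background in wild-type day 6 replicate 2 alone among the wild-types and in all 8 nulls. The gain was at least 2.22-fold at day 5, with differences of 2.15 (SE 0.24) and 1.55 (SE 0.31).

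Angptl4 had the smallest gain at day 6. It read 7.22, 6.10, 6.58 and 6.78 in wild-type and 7.87, 9.44, 8.36 and 8.96 in null cultures of day 5, and 5.86, 7.11, 6.57 and 6.14 in wild-type and 7.44, 8.37, 8.09 and 7.27 in null cultures of day 6. Wild-type day 5 replicate 1 and day 6 replicate 2 were above background, as were all 8 nulls, and the lowest null and the highest wild-type culture of the 16 were 0.05 apart. The differences were 1.99 (SE 0.41) and 1.37 (SE 0.38). The second probe, ILMN_2424627, was below background on all 16 arrays, with differences of -0.05 and 0.01, so the Angptl4 gain also rests on 1 probe. At a detection p under 0.05, a limit chosen after the data were seen, Alpk3 would be above background in 1 wild-type culture of day 5 and 2 of day 6, Pxdc1 in 2 and 4, Angptl4 in 2 and 1, Cygb in 3 and 1, and Cpne8 in 3 and 2. At that limit none of the 5 was dark in all wild-type cultures. The lower bounds on fold hold on the background-corrected scale only. In intensities without background correction the differences were 1.21 and 1.45 for Alpk3, 1.08 and 0.80 for Pxdc1, 1.47 and 1.71 for Cygb and 0.67 and 1.64 for Cpne8 at days 5 and 6. With the rank-invariant values they were 1.12 and 1.38, 0.97 and 0.75, 1.41 and 1.67, and 0.64 and 1.59 in the same order. Taken as folds, these log2 differences are smaller than the bound wherever one is given, except for Alpk3 at day 5 without correction.

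**Figure D1:**
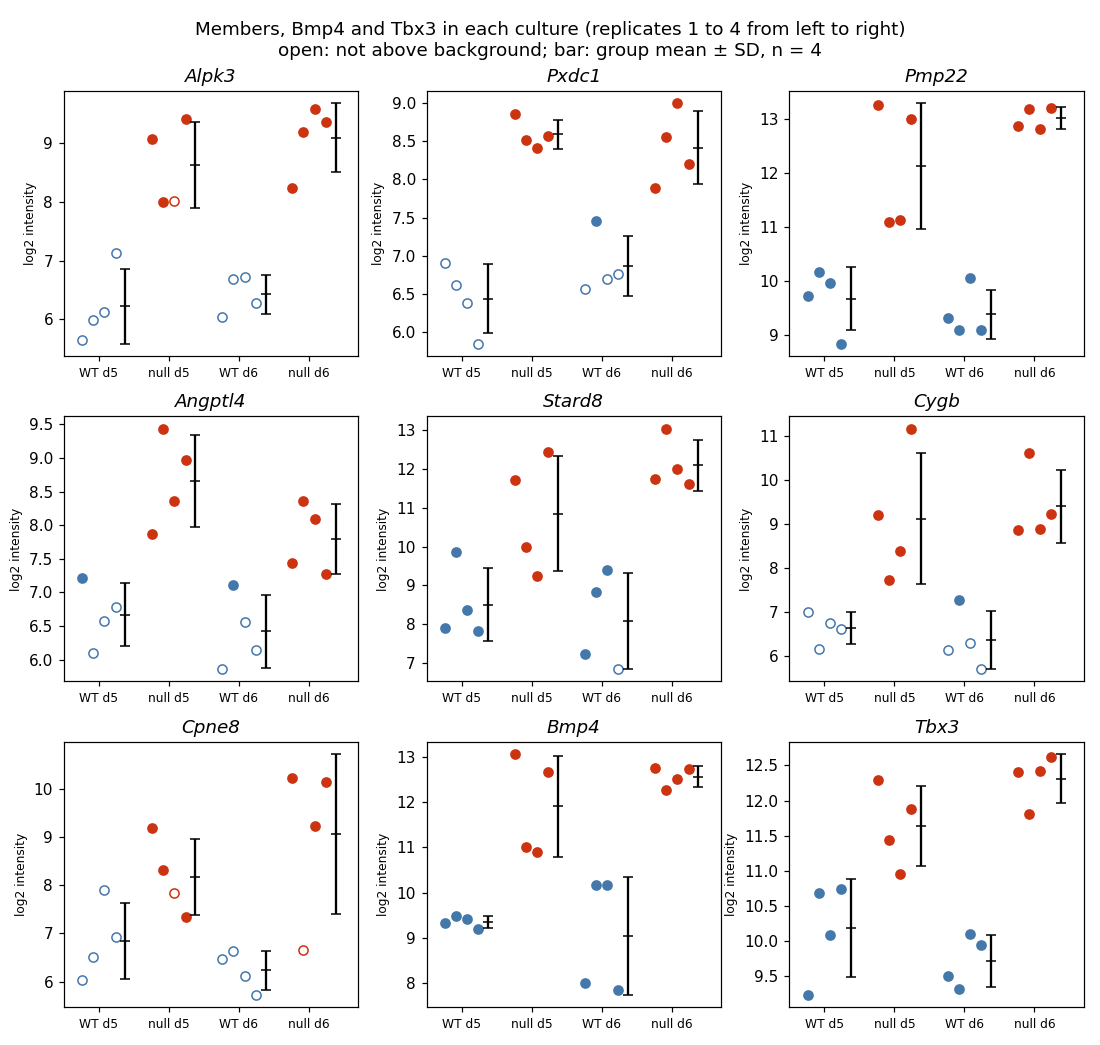
Log2 intensity of the 7 genes, Bmp4 and Tbx3 in each of the 16 cultures, grouped by genotype (WT, wild-type) and day (d5, d6), with open points not above background and bars for the group mean ± SD (n = 4). Alpk3 and Cpne8 are open in all 8 wild-type cultures, and null day 5 replicates 2 and 3 lie low for Pmp22, Stard8, Bmp4 and Tbx3.

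**Figure D2:**
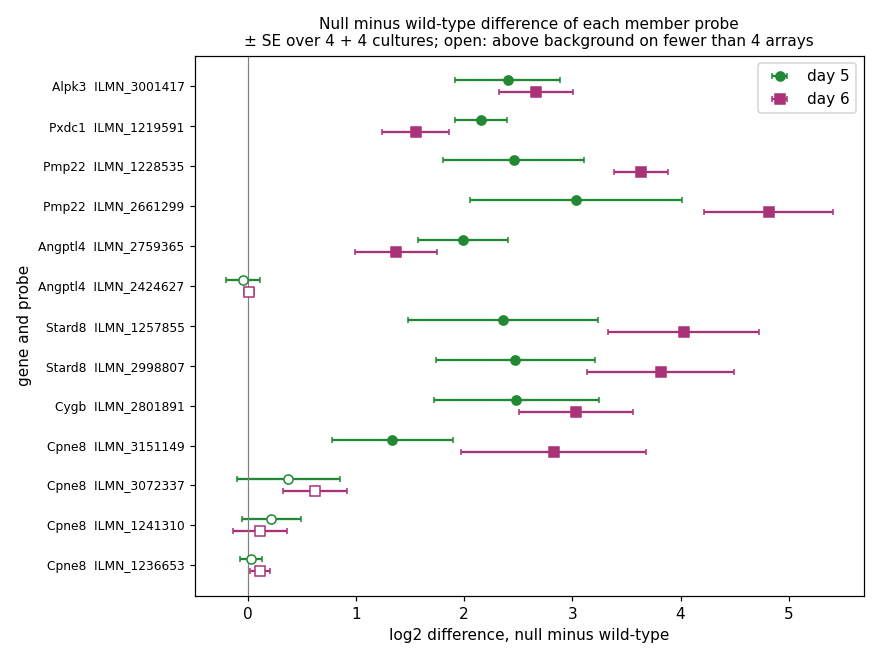
Null minus wild-type difference in log2 intensity of the 13 probes at day 5 (circles) and day 6 (squares), with the SE over 4 and 4 cultures. The 4 open probes, above background on fewer than 4 arrays, lie between -0.05 and 0.62.

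Over the 7 genes the median difference was 2.36 at day 5 and 2.83 at day 6. Every null lay above every wild-type culture for 5 of 7 genes at day 5, where 2.08% of all genes did so, for 7 of 7 at day 6, where 3.46% did, and for 5 over both days together (Alpk3, Pxdc1, Pmp22, Angptl4 and Cygb), where 0.329% did. In a limma model across all 10939 genes with Benjamini-Hochberg adjustment, 4 of the 7 passed an adjusted p of 0.05 at day 5 (Alpk3, Pxdc1, Pmp22 and Angptl4), where 0.064% of genes were called higher and 0.494% lower. At day 6, 6 passed, all but Angptl4, where 0.576% were called higher and 0.996% lower. With the replicate number as a block the counts were 2 and 4 of 7. These counts follow from how the genes were chosen and nothing is read from them. Without the 4 arrays numbered replicate 3, a setting added after the data were seen, limma called 0 genes of any kind at either day, with 1008 and 1066 at an unadjusted p under 0.05, while the differences of the 7 genes lay between 1.80 and 2.88 at day 5 and between 1.30 and 4.51 at day 6.

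Bmp4 and Tbx3 were then set beside the 7 genes, culture by culture. Bmp4 read 9.34, 9.48, 9.43 and 9.19 in wild-type and 13.06, 11.01, 10.91 and 12.66 in null cultures of day 5, and 8.0, 10.16, 10.18 and 7.85 in wild-type and 12.76, 12.26, 12.50 and 12.73 in null cultures of day 6. Among the nulls, day 5 replicates 2 and 3 were the low ones, and the other 6 lay between 12.26 and 13.06. Tbx3 read 9.24, 10.69, 10.09 and 10.75 in wild-type and 12.29, 11.44, 10.96 and 11.88 in null cultures of day 5, and 9.51, 9.32, 10.10 and 9.95 in wild-type and 12.40, 11.81, 12.42 and 12.62 in null cultures of day 6, so the same pair of null cultures was lowest. Both references stood higher in every null than in every wild-type culture, so a correlation over all 16 would only restate the genotype. It was therefore computed within each genotype, over 8 cultures, for 28 relations in all, each with a 2-sided exact permutation test and Benjamini-Hochberg adjustment over the 28. The labels do not say whether a line was used at both days, and the test treats the 8 cultures as independent.

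None of the 28 relations passed an adjusted p of 0.05, and 5 had an unadjusted exact p under 0.05. In null cultures Pmp22 followed Bmp4 most closely, with r = 0.96 (exact permutation p = 0.011, adjusted p = 0.156, rho = 0.74 with exact p = 0.0458 and adjusted p = 0.321, n = 8). Stard8 followed with r = 0.80 (exact p = 0.0338, adjusted p = 0.189, rho = 0.26 with exact p = 0.536). The remaining coefficients with Bmp4 in null cultures were 0.71 for Alpk3, 0.54 for Cygb, 0.41 for Cpne8 and 0.04 for Pxdc1, and Angptl4 ran the other way at -0.61, their exact permutation p-values lying between 0.0511 and 0.929. With Tbx3 in null cultures r was 0.82 for Pmp22 (exact p = 0.0234, adjusted p = 0.189), 0.68 for Cpne8, 0.65 for Stard8, 0.63 for Alpk3, 0.20 for Cygb, -0.04 for Pxdc1 and -0.69 for Angptl4. Bmp4 and Tbx3 themselves had r = 0.88 in null cultures (exact permutation p = 0.00511) and r = 0.06 in wild-type (exact p = 0.889), outside the family of 28. Their rho in null cultures was 0.71 (exact permutation p = 0.0576). Without null day 5 replicates 2 and 3 their r was 0.47 (exact permutation p = 0.357, n = 6).

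Most of the positive null relations rested on the pair of low day 5 cultures. Without null day 5 replicates 2 and 3, which lie farthest from the median of Bmp4 and of Tbx3, the median r of the 7 genes with Bmp4 went from 0.54 to -0.30, with 2 of 7 positive. Pmp22 was then at 0.25, Cpne8 at 0.59, up from 0.41, and Stard8 at -0.78 (exact p = 0.0694, adjusted p = 0.324, n = 6). With Tbx3 only Cpne8 was positive, and its r went up from 0.68 to 0.96 (exact permutation p = 0.00972, adjusted p = 0.194, n = 6). Angptl4 went from -0.69 to -0.86, so the relations of Cpne8 with both genes and of Angptl4 with Tbx3 did not rest on the pair. Stard8 was at -0.91 and Cygb at -0.89 with Tbx3, and these 3 negative values had adjusted p-values of 0.194 to 0.28. Leaving out in place of these the pair of null cultures low in Lhx1 kept day 5 replicates 2 and 3 among the 6 left. With Bmp4, r was then 0.99 for Pmp22, 0.95 for Stard8, 0.89 for Cygb, 0.86 for Cpne8 and 0.71 for Alpk3. Pxdc1 was at 0.02 and Angptl4 at -0.80 (n = 6, smallest adjusted exact permutation p of the 7 genes = 0.104). Centering each day on its own mean gave 0.95 for Pmp22 and 0.75 for Stard8 with Bmp4, with exact p-values of 0.148 and 0.325 when cultures were permuted within days.

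In wild-type cultures all 7 genes had a positive r with Bmp4, from 0.27 for Cpne8 and Pxdc1 to 0.83 for Stard8 (exact permutation p = 0.0111, adjusted p = 0.156, rho = 0.93 with exact p = 0.00223 and adjusted p = 0.0625, n = 8). Stard8 and Bmp4 were both highest in wild-type day 5 replicate 2 and day 6 replicates 2 and 3 and lowest in day 6 replicates 1 and 4. Without wild-type day 5 replicate 2, Stard8 reached r = 0.96 (adjusted exact p = 0.0278), the single relation past the threshold under any culture left out. Without the 2 wild-type cultures farthest from the median, day 6 replicates 1 and 4, it was 0.54 (exact p = 0.249, adjusted p = 0.723). In wild-type, however, Alpk3 and Cpne8 were below background in all 8 cultures, Pxdc1 and Cygb in 7 and Angptl4 in 6. Their coefficients there mostly relate background readings, and only those of Stard8 and Pmp22 relate measured levels. With Tbx3, 4 of the 7 coefficients were positive in wild-type, from -0.73 for Pxdc1 (exact permutation p = 0.033, adjusted p = 0.189) to 0.41 for Alpk3, both of them among these dim genes, and Stard8 and Pmp22 had 0.33 and 0.14. Stard8 was thus the one member with r above 0.8 with Bmp4 in both genotypes, and in the null cultures that value did not hold without the pair of low cultures.

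**Figure D3:**
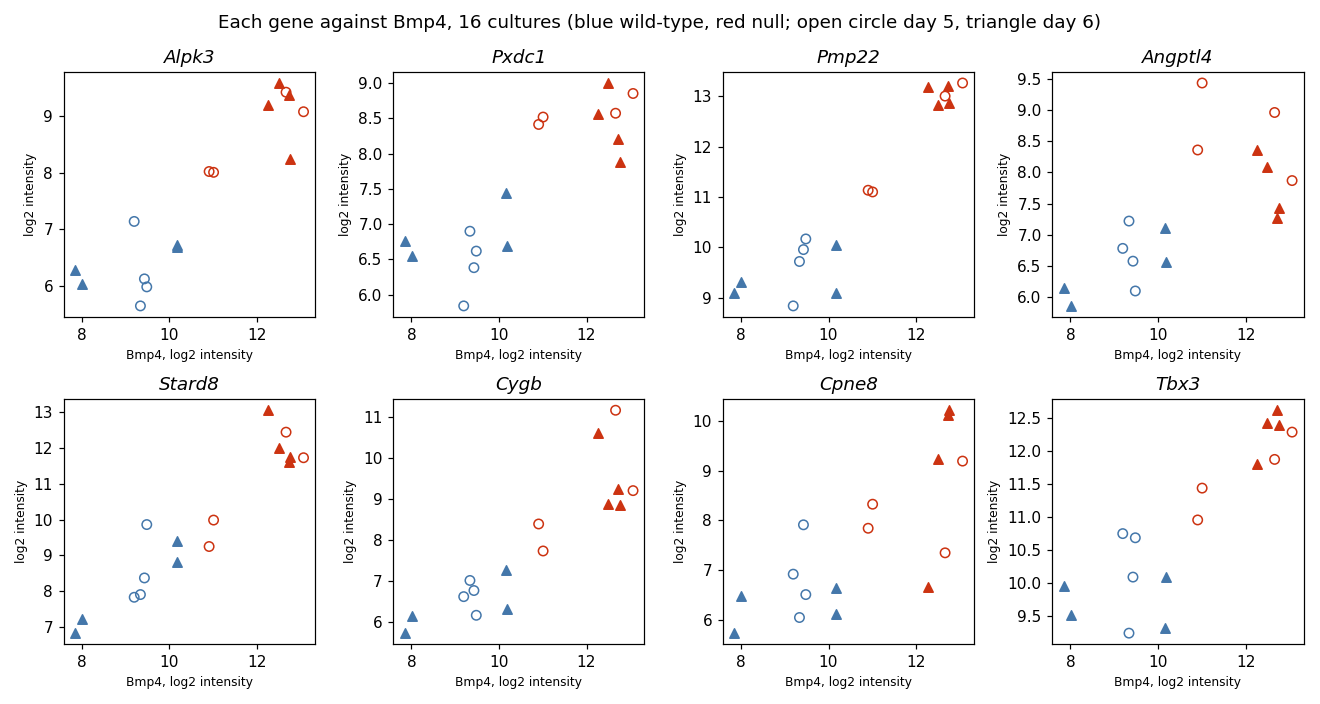
Log2 intensity of each of the 7 genes and of Tbx3 (vertical axes) against Bmp4 (horizontal axis) in the 16 cultures, wild-type in blue and null in red, day 5 as circles and day 6 as triangles. In the null cultures 6 points of Bmp4 lie between 12.26 and 13.06 and 2, day 5 replicates 2 and 3, at 10.91 and 11.01.

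**Figure D4:**
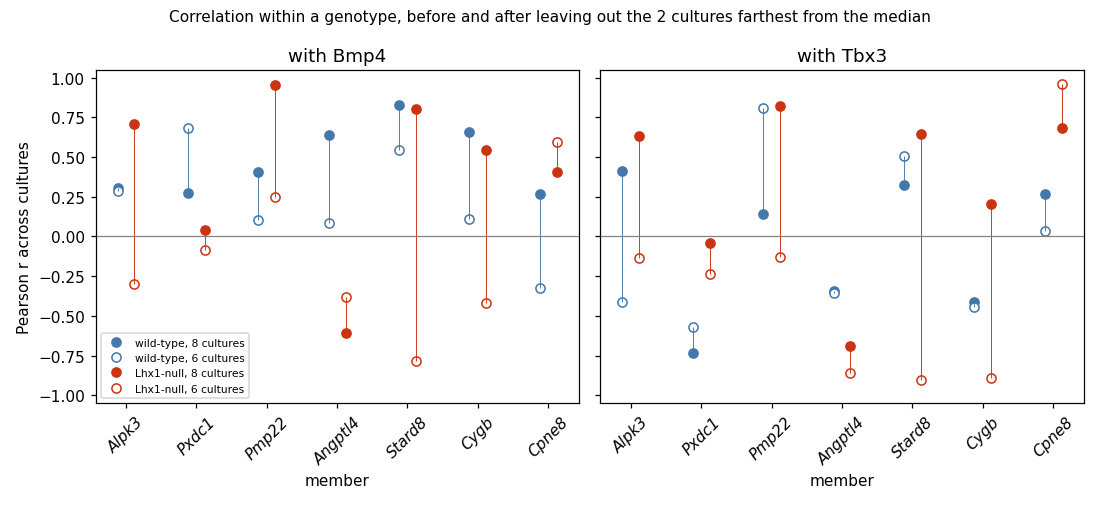
Pearson r of each gene with Bmp4 (left) and Tbx3 (right) over the 8 cultures of a genotype (filled) and over the 6 left without those farthest from the median (open), blue for wild-type and red for null. In the null cultures Stard8 goes from 0.80 to -0.78 with Bmp4.

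The 8 null cultures did not order the 7 genes alike. Pmp22, Stard8, Alpk3 and Cygb shared the low values of day 5 replicates 2 and 3 with Bmp4 and Tbx3. From the mean of the 8 nulls these were -1.47 and -1.44 for Pmp22 and -1.49 and -2.23 for Stard8. For Alpk3 they were -0.86 and -0.84, and for Cygb -1.53 and -0.87. Angptl4 was highest in day 5 replicate 2, at 1.21 over the mean. Pxdc1 spread least among the nulls, from -0.62 to 0.50 around the mean. Cygb and Stard8 were each highest in null day 5 replicate 4 and day 6 replicate 2, the cultures low in Lhx1, with Cygb 1.90 and 1.36 over the mean. Cpne8 was lowest in the same cultures, -1.28 and -1.97 from the mean.

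Those 2 null cultures also differed in markers of other cells. The embryonic globins Hba-x, Hbb-bh1 and Hbb-y and the adult globin Hba-a1 read 9.36 to 13.83 in null day 5 replicate 4 and 13.62 to 14.84 in null day 6 replicate 2, and 8.28 to 9.45 in wild-type day 6 replicate 4, and were below background in the other 13 cultures. Of a list of 6 measured globins other than Cygb, Mb and Ngb were dark everywhere, and the summed level was 19523 and 94912 in the pair against 182 to 277 in the other 6 nulls. For 12 smooth muscle and fibroblast genes the summed level was 27273 and 38098 in the pair, 2374 to 4887 in the other nulls and 1615 to 18622 in wild-type, with the smooth muscle marker Cnn1 dark in all 16. The part of these cells in the Cygb and Stard8 values was not tested. Null day 5 replicates 2 and 3, the pair low for Bmp4, Pmp22 and Stard8, had summed levels of 7 pluripotency genes of 37559 and 18011, against 6978 to 25438 in the other 6 nulls and 3314 to 14376 in wild-type, and replicate 2, where Angptl4 was highest, had the highest of all 16. Their summed levels of 10 visceral and parietal endoderm genes, 2775 and 3828, were the lowest of the 8 nulls, which otherwise had 8944 to 22913. The part of these cells in the members' values was not tested either. Without the nulls low in Lhx1, Cygb was 7.73 to 9.20 in day 5 nulls and 8.86 to 9.23 in day 6 nulls. All 8 nulls were above every wild-type culture to begin with. Leaving out the 2 highest could not change that, so nothing about these cells is read from it.

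**Figure D5:**
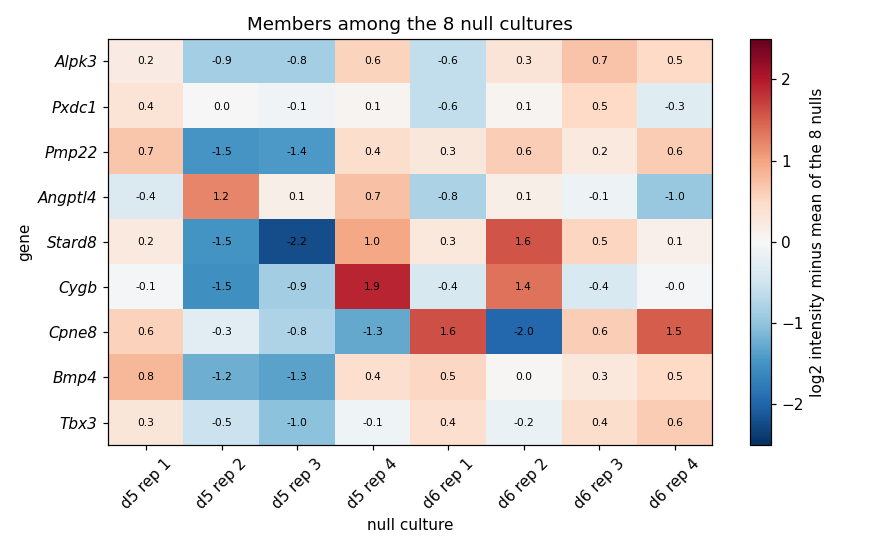
Log2 intensity of each gene in the 8 null cultures, less its mean over the 8 (color and printed value; rep, replicate; d5 and d6, days). Day 5 replicates 2 and 3 are low for Pmp22, Stard8, Alpk3, Cygb, Bmp4 and Tbx3, and Cygb is high in day 5 replicate 4 and day 6 replicate 2.

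Change from day 5 to day 6 was a comparison the choice of genes had not used directly. In wild-type cultures Stard8 and Pmp22, the members with measured levels there, changed by -0.42 (SE 0.73) and -0.28 (SE 0.46). The other 5 were at or near background in wild-type on both days and their changes, -0.61 to 0.43, lie between background readings, so no direction is read from them. In null cultures, where each of the 7 was above background in at least 3 of 4 cultures at each day, 5 were higher at day 6, from -0.87 for Angptl4 to 1.25 for Stard8. None passed limma's adjusted p of 0.05, and neither did any of the 10939 genes (0% called in each genotype and for the difference between genotypes), although 133 genes in wild-type and 445 in nulls had an unadjusted p under 0.05. Angptl4 in null cultures was the one member at an unadjusted p under 0.05 (log2 change -0.87, SE 0.37, adjusted p = 1.00). The null minus wild-type difference was larger at day 6 than at day 5 for 5 of 7 genes, by 0.26 for Alpk3 to 1.67 for Stard8 (SE 1.03, adjusted p = 1.00), and smaller for Pxdc1 and Angptl4, by 0.60 and 0.62. The interval of each change is wide at this number of cultures, and a change of the size of its SE was not detectable.

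To see which genes varied like each member, the deviations from the 4 group means were correlated over the 16 arrays with those of 10938 other genes. These coefficients are descriptions and have no p-value, and any technical or culture effect that arrays may share was not removed. Stard8 varied most like Apcdd1, a membrane inhibitor of Wnt signaling (r = 0.82), and like Col4a2 and Lama1, both basement membrane genes (0.81 each). Bmp4 stood 10th for Stard8 (r = 0.78) and Pmp22 14th (r = 0.77), and Stard8 stood 13th for Pmp22. Apcdd1 was 2.43 higher in nulls at day 5 (limma adjusted p = 0.125) and 3.50 at day 6 (adjusted p = 0.016, and 0.0527 with the replicate number as a block), while Col4a2 and Lama1 were called at neither day.

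Pmp22 varied most like Zfp768 (r = 0.90), the probe ILMN_2537734 (0.81) and the cyclophilin gene Ppic (0.81), with Bmp4 48th of 10938 (0.68). Alpk3, Pxdc1, Angptl4, Cygb and Cpne8 were below background in most or all wild-type cultures. The wild-type part of their coefficients therefore mostly relates background readings. For Alpk3 the nearest were Dcaf6 (0.86), Nfatc4 (0.85), a calcium-regulated transcription factor, and ILMN_2457437 (0.85), and for Pxdc1 they were Dus2 (0.81), Dhdh (0.78) and the mitochondrial beta-oxidation enzyme gene Echs1 (0.77). Angptl4 varied most like Cenpi (0.92), a centromere protein gene, Alpl (0.88), the tissue-nonspecific alkaline phosphatase, and Pmm1 (0.88). Cygb varied most like Tmem70 (0.96), Peg13 (0.93), an imprinted noncoding RNA, and Sav1 (0.92), a Hippo pathway scaffold. Cpne8 varied most like Foxh1 (0.92), the partner of Smads in Nodal signaling, ILMN_2742426 (0.89) and Olfm1 (0.89). Of these 21 neighbors only Apcdd1 was called between genotypes, at day 6. Among the members themselves Stard8 and Pmp22 were the closest pair, and Angptl4 and Cpne8 (r = -0.47) the most opposed.

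Relatives of the 7 genes and the pathways around them were read in the same limma model, in which day 5 had 0.558% and day 6 had 1.57% of the 10939 genes called in either direction. At these shares a list of 1 to 12 genes may hold no called gene whatever its role, so a count of 0 below is given as a count only. Of 18 lists with 184 genes, 171 were on the array under their symbol and 92 passed the filter. For Pmp22, the tetraspan relatives Emp1, Emp2, Emp3 and Tmem47 were kept by the filter, and Emp3 was called higher at day 6. Emp3 read 9.12, 9.52, 8.81 and 8.84 in wild-type and 10.15, 11.48, 11.11 and 10.95 in null cultures of day 6, a difference of 1.85 (SE 0.37, adjusted p = 0.0232, and 0.0511 with the replicate block) with no overlap, and at day 5 the difference was 1.14 (adjusted p = 0.205). Among myelin and Schwann cell genes, Mbp, a myelin protein gene also transcribed outside glia, moved opposite to Pmp22. At day 5 it was above background in all 4 wild-type and in none of the null cultures, at least 3.94-fold lower in the nulls (adjusted p = 0.0167, blocked 0.0573), and at day 6 it fell by 2.05 (adjusted p = 0.0232, blocked 0.0647). The Schwann cell and neural crest markers Sox10 and Foxd3 and the myelin genes Mal and Mag were below background on all 16 arrays.

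Around Angptl4, 0 of 4 measured genes of the lipoprotein lipase axis were called at either day. Lpl, the enzyme that Angptl4 inhibits, differed by 1.29 (SE 0.71, adjusted p = 0.51) at day 5 and 1.20 (adjusted p = 0.501) at day 6, and Vldlr, a receptor for triglyceride-rich lipoproteins and the brightest of them, by 0.36 and 0.74. Of 6 measured PPAR response genes 0 were called, with Pparg, the adipogenic receptor, dark in all wild-type cultures and above background in 2 and 3 nulls (at least 1.22-fold at day 6, adjusted p = 0.106), Ppard, the brightest, at -0.17 and -0.32, and Fabp4 and Cpt1a dark on all arrays. Of 11 measured hypoxia response genes 0 were called, and their median difference was -0.05 at day 5 and -0.18 at day 6. The brightest, the glycolytic gene Ldha, differed by 0.02 and -0.11. The only other angiopoietin-like gene measured, Angptl6, differed by 0.09 and 0.40 and was not called.

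Of 9 measured relatives of Stard8 0 were called. Of its RhoGAP paralogs, Dlc1 differed by 0.37 and 0.63, and Stard13 was dark in all wild-type cultures and above background in 3 and 2 nulls. The brightest relative, Stard4, a cholesterol carrier, differed by -0.71 and -0.41. For Cpne8, Cpne2 differed by 0.51 and 0.88 (adjusted p = 0.107 at day 6) and Cpne9 by 0.79 and 0.41, and 5 of 8 copines were dark on all arrays. For Alpk3, Eef2k, a kinase of translation elongation, was the only relative measured and differed by 0.31 and -0.06, and the cardiac genes Myh6 and Myh7 were dark on all 16 arrays. Of 4 measured cardiac muscle genes 0 were called, and the summed level of the 10 on the array lay between 1020 and 6277 in wild-type cultures and between 828 and 2766 in nulls. For Pxdc1, 0 of 12 measured PX domain genes were called, with medians of -0.08 and 0.03 and the brightest, Snx2, at -0.10 and 0.01.

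Among 7 measured BMP response genes, Msx1, a homeobox target of BMP signaling, was called higher at day 6. It read 8.48, 10.05, 9.48 and 9.21 in wild-type and 11.73, 12.48, 11.85 and 11.89 in null cultures (difference 2.68, SE 0.41, adjusted p = 0.00676), and the day 5 difference was 1.94 (adjusted p = 0.0504). Id1, Id2 and Id3, the immediate targets of BMP receptors, differed by -0.63, -0.18 and -0.35 at day 5 and by -0.46, -0.11 and 0.23 at day 6, and none was called. Smad6, Tbx2 and Gata2 differed by 0.38, 0.96 and 1.48 at day 5 and by 1.45, 1.62 and 1.00 at day 6, also uncalled. Tbx2 and Gata2 were dark in all wild-type cultures. The median difference of the 7 was 0.38 at day 5 and 1.00 at day 6. Of 3 measured smooth muscle and fibroblast genes, Pdgfra, a receptor of mesoderm and fibroblasts, was the only one called. It was higher in nulls at day 6 (difference 1.59, SE 0.36, adjusted p = 0.0425, blocked 0.0676). Acta2 went the other way at day 6, by -0.41, and Thy1 differed by 0.37, which was also the median of the 3. The endothelial receptor Flt1 fell by 1.89 at day 5 (adjusted p = 0.0243, blocked 0.0573). It was the only one called of 5 measured endothelial genes, and most of that list went the other way. The median difference of the 5 was 0.82 at day 5 and 1.10 at day 6, with 3 and 4 of them higher in nulls. Of the DE markers, Sox17 fell by 2.43 at day 5 (adjusted p = 0.0459, blocked 0.0988), Hhex fell by 2.40 at day 5 and fell by 2.30 at day 6 (adjusted p = 0.00458 and 0.00545) and Trh fell by 2.86 at day 6 (adjusted p = 0.0471, blocked 0.0646), while Tbx3, held in the pluripotency list, rose by 2.59 at day 6 (adjusted p = 0.00482). Of the calls named here and among the relatives, those of Hhex at both days and of Msx1 and Tbx3 at day 6 held with the block and with any 1 culture left out. Those of Emp3, Mbp, Pdgfra, Flt1, Sox17, Trh and Apcdd1 were lost with the block and passed in 3 (Trh) to 13 (Apcdd1) of the 16 fits that left out 1 culture, with the highest adjusted p each time when a wild-type culture was left out. None of all these calls held without the 4 arrays numbered replicate 3 (lowest adjusted p among them 0.0569). The adjusted p-values are from limma across all 10939 genes, and the lists were drawn up with earlier results of these arrays known.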

How the data were processed

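The arrays were Illumina Mouse WG-6 v2, 1 for each of 16 cultures. The authors deposited probe intensities without normalization, each with a detection p-value from GenomeStudio, of a version not given in the sources used here. A second deposited table of intensities, rank invariant normalized by the authors, was a straight-line rescaling of the first on each array and served as an alternative. Here neqc of limma 3.58.1 in R 4.3.3 (offset 16) subtracted background, estimated through these detection values, and gave quantile-normalized log2 intensities. Kept were 15593 of 45281 probes, those under a detection p of 0.01 on 4 arrays or more. Symbols were those of the platform annotation, which gives 34885 probes 1 symbol, 18 several and 10378 none. A gene was read by its brightest kept probe, and unnamed probes stood for themselves, 10939 in all. The number of arrays and the signal over background set the precision.

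One limma model of the 4 group means was fitted, with no replicate block, after a check on simulated data. The labels state no pairing, but deviations from group means of same-numbered wild-type and null cultures correlated at 0.14 to 0.36 at day 5, all above 0.1, and at -0.04 to 0.44 at day 6, so blocked values are given where they change a call. Correlations were tested by exact permutation in Python 3.11.15. The paper describes the null lines as independent biological replicates, but the labels do not say which ES cell line each culture came from. For null day 6 replicates 3 and 4, which share the description of replicate 2, numbers follow the titles. That these cultures came from separate lines could not be checked. The members and gene lists were chosen with earlier results of these arrays known. Other genes named are the 3 nearest neighbors of each member, the called or else brightest genes of each list, and list genes dark on all arrays. Emp1, Emp2, Tmem47, Lpl, Pparg, Dlc1, Stard13, Cpne9, the globins, the Id genes, Smad6, Tbx2, Gata2, Acta2 and Thy1 were named after their values were seen.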

Additional observations from a re-analysis of the deposited data

How the results depend on the processing

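Signal over background limits the dim genes, and 4 cultures per group limit every difference. The 7 genes stayed higher in null cultures under each setting tried on the probe used and with each culture left out. Their median difference at days 5 and 6 was 1.21 and 1.64 without background correction and 1.12 and 1.59 with the rank-invariant values, and 2.28 at day 6 without the null cultures of conflicting labels. With the second Angptl4 probe the day 5 difference was -0.047.

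The number of genes called by limma at days 5 and 6, 61 and 172, moved to 21 and 82 with no filter on dim probes, 14 and 90 with a replicate block, 16 at day 5 with one day only, 5 at day 6 without the cultures of conflicting labels, and 0 and 0 without the arrays numbered 3 (smallest adjusted p 0.0567 and 0.0525). With single cultures left out they ranged from 11 to 178 and from 33 to 337, lowest when wild-type day 5 replicate 2 or day 6 replicate 4 was omitted and highest when wild-type day 5 replicate 1 or day 6 replicate 2 was. Between days 1 gene was called in wild-type with no filter and 1 in null cultures without those of conflicting labels. The replicate block changed no other count. At day 5 and again at day 6, 2 of 4 wild-type cultures correlated most with the null culture of their own number. Whether the numbers pair the cultures is therefore not settled at either day. The number of correlations past the threshold was 0 to 1 with single cultures left out.

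Some correlations changed sign. In null cultures, without those farthest from the median, r with Bmp4 was -0.30 for Alpk3, -0.084 for Pxdc1, -0.78 for Stard8 and -0.42 for Cygb, and with Tbx3 it was -0.14 for Alpk3, -0.13 for Pmp22, -0.91 for Stard8 and -0.89 for Cygb. In wild-type it was -0.32 for Cpne8 with Bmp4 and -0.41 for Alpk3 with Tbx3. Pxdc1 with Tbx3 in null cultures was 0.0238 as Spearman's rho, 0.17 centered within days and 0.25 with the rank-invariant values, and Pxdc1 with Bmp4 there was -0.0771 without the arrays numbered 3. With single cultures left out, Pxdc1 ranged from -0.15 to 0.33 with Bmp4 and from -0.29 to 0.26 with Tbx3 in null cultures and from -0.0678 to 0.43 with Bmp4 in wild-type, Cygb from -0.034 to 0.35 with Tbx3 in null cultures, Pmp22 from -0.16 to 0.65 with Tbx3 and Cpne8 from -0.0624 to 0.45 with Bmp4 in wild-type. The cause of these changes was not tested.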
